A study of Mus musculus with 24 samples.

Results

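The protein by taurine interaction in newborn skeletal muscle was examined on 12 arrays of hindleg muscle, chosen by tissue label from the 24 arrays of the series. All pups were C57BL/6 mice killed on day 0 after birth, and their mothers were fed 1 of 4 diets from day 1 of pregnancy until birth. The LPtau mothers received 8% casein and 1% taurine in the drinking water, and the NPtau mothers 20% casein with the same taurine water. The LP mothers received 8% casein and the NP mothers 20% casein, both with plain water. Each group held 3 arrays. The labels call them biological replicates without naming dams or litters, so p-values measure the spread between these arrays, which may be smaller than that between litters. The interaction of a gene is its difference LPtau minus NPtau less its difference LP minus NP. A positive value means that the low protein difference was higher, or less low, when the mother drank taurine. All values are RMA log2 expression values, on which 1 unit is a 2-fold difference.

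Taurine, a small sulfonic acid made from cysteine, is abundant in skeletal muscle, where it is known to act in osmotic balance, in calcium handling and in the modification of mitochondrial transfer RNA. A fetus receives much of its taurine across the placenta. Mouse limb muscle is immature at birth. Its fibres still hold embryonic and neonatal myosin, and the adult fast fibre genes, the mitochondria and the insulin-sensitive glucose transporter increase around and after that time.

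The promoters of the 3 genes with the largest positive interaction t are printed here because in all 3 genes LP was the lowest group by far. Each run holds the 250 bases before a transcription start, 5′ to 3′, from RefSeq on build GRCm38.p6. Capitals mark matches to the E-box CANNTG, the type of site bound by MyoD and related myogenic factors, or to the MEF2 consensus, searched on both strands.
Pvalb, first start, chr15:78206401-78206650, minus strand: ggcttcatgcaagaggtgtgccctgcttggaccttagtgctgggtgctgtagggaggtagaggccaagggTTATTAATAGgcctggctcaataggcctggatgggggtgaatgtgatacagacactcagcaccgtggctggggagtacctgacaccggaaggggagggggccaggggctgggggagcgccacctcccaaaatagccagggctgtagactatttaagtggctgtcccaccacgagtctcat
Pvalb, second start, chr15:78204238-78204487, minus strand: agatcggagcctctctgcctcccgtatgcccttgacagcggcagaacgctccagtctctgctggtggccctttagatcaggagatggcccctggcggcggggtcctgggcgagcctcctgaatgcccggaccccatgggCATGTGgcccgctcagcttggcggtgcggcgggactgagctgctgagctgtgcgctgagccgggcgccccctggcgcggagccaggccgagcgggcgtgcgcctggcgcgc
Mybpc2, chr7:44524670-44524919, minus strand: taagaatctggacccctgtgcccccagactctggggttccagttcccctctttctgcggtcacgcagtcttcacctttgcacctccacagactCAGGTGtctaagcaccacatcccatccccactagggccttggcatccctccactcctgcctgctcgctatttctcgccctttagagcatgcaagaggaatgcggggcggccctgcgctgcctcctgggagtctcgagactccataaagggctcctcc
Cox7a1, chr7:30183921-30184170, plus strand: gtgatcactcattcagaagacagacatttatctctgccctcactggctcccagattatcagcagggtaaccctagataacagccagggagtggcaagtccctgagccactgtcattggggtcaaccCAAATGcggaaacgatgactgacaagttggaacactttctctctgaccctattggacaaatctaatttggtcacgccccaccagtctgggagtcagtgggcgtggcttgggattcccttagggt
The MEF2 match of Pvalb begins 180 bases before its first start. The E-box matches begin 111 bases before the second Pvalb start, 157 before that of Mybpc2 and 124 before that of Cox7a1, and no match overlaps another. Among all 32851 windows of this length in the table, 66.2% held an E-box and 2.92% a MEF2 match. Of the 15 genes with the highest interaction t, 12 had a window in the table, and 9 of their 13 windows held an E-box. Of the 15 with the lowest t, 12 had a window, and 5 of 19 windows held an E-box. A match describes letters and is not evidence of a bound site.

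The arrays carried a skeletal muscle profile. Skeletal alpha-actin Acta1 read 14.2 to 14.9 and muscle creatine kinase Ckm 13.3 to 14.2 over all 12 arrays, near the top of the measured range. The median value of an array was 4.95 to 5.04. LP array 1 and LPtau array 1 stood apart, with mean correlations of 0.956 and 0.962 with the other arrays, against 0.976 to 0.984 for the rest. NPtau array 2 was low in mitochondrial and muscle genes. Keratinocyte genes such as Krt14 were high on LP array 1, where Krt14 read 12.5, against 4.85 to 10.0 on the other 11 arrays. By Xist and Y-linked genes 1 of 3 LPtau, 2 of 3 NPtau, 2 of 3 LP and 1 of 3 NP pups were female, so the balance of the sexes runs along the interaction. Values with sex in the fit are given for the fast fibre, complex I and hedgehog lists and for some genes, and not for the other lists.

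No gene passed the interaction test (limma, Benjamini-Hochberg adjusted p under 0.05, 0 of 18193 genes, 0%). Of all genes, 1194 had an unadjusted p under 0.05 (6.56%), of which 699 (3.84%) were positive and 495 (2.72%) negative, where chance alone gives 5% on average. Counts at an unadjusted p are not calls and are given below as descriptions of where the values lean. The smallest adjusted p belonged to parvalbumin, at 0.0544. Among the 1194 genes, the protein difference was larger in size without taurine in 862 (72.2%), against 49.4% of all genes. LP was the group mean farthest from the other 3 in 840 of them (70.4%), against 37.3% of all genes. In most of these genes LP muscle was the group apart.

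The protein difference itself also differed in its number of calls between the taurine and the plain water mothers. With taurine, LPtau against NPtau gave 0 calls (0%) and 992 genes with an unadjusted p under 0.05 (5.45%). Without taurine, LP against NP gave 23 calls (0.126%), of which 4 were higher (0.022%) and 19 lower (0.104%) in LP, and 1957 genes with an unadjusted p under 0.05 (10.8%). A call in one and none in the other does not show a difference, which only the interaction tests. Taurine under low protein, LPtau against LP, gave 4 calls (0.022%). Pvalb, Mybpc2 and Cox7a1 rose and Mylip fell in LPtau relative to LP. Taurine under normal protein, NPtau against NP, gave 0 calls (0%) and 88 genes with an unadjusted p under 0.05 (0.484%). That share is below the 5% that chance gives on average, so it does not show that taurine had no effect there. The fit gave all groups 1 spread, while the median within-group SD was 0.13 in NP, 0.17 in NPtau, 0.18 in LP and 0.22 in LPtau. Counts of the contrasts are therefore not on an equal footing. LPtau against LP uses the same LP arrays as LP against NP and the interaction, so these 4 genes are not independent evidence for either. Of the 23 LP against NP calls, only those of Pvalb and Mybpc2 held under each of the 23 alternatives. Those of Cox7a1 and Actn3 passed with sex in the fit (adjusted p = 0.0269 and 0.0457 in limma) but not with the replicate block or without any 1 NP array. Those of Gli1, Mylip, Abra, Kcna5, Fxyd1, Eef1a2 and Cpsf6 were lost with sex in the fit, where their limma adjusted p was 0.0549 to 0.0997, with the replicate block, and without any 1 NP array.

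**Figure D1:**
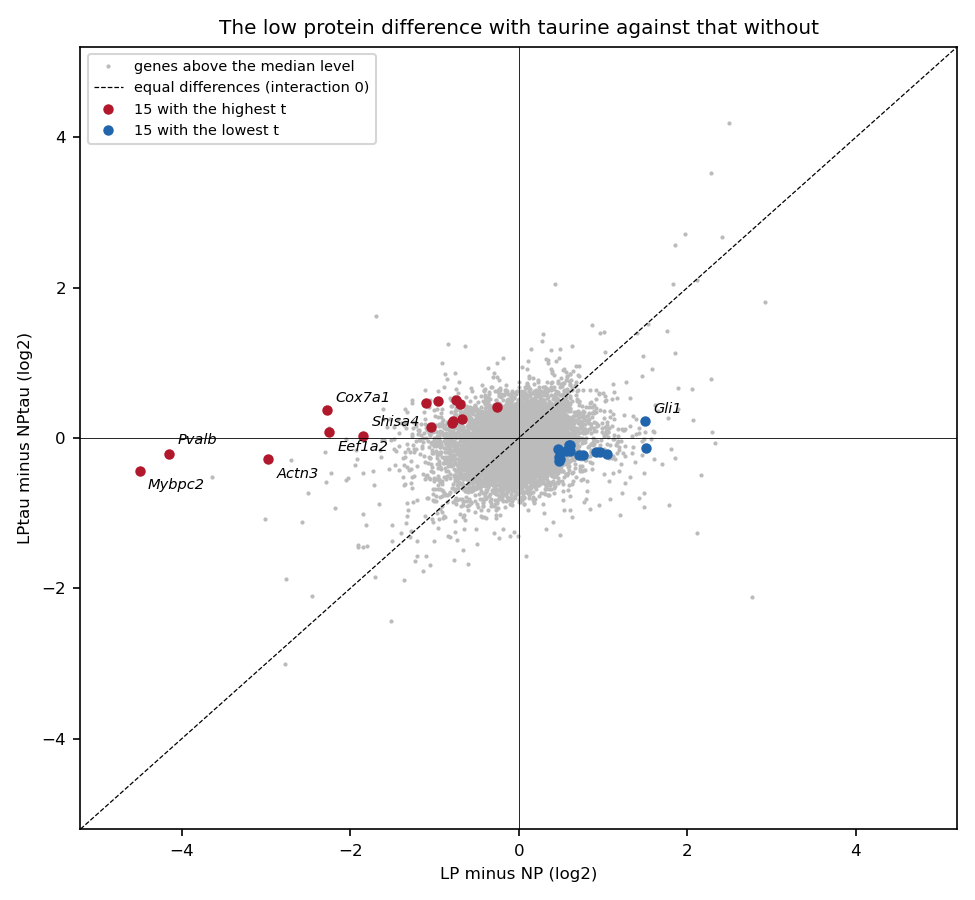
Each grey point is a gene whose mean is above the median level of all probe sets, with its log2 difference LP minus NP on the x axis and LPtau minus NPtau on the y axis. Red and blue points are the 15 genes with the highest and the 15 with the lowest interaction t. Mybpc2, Pvalb and Actn3 lie at the far left, at -4.50, -4.14 and -2.98 without taurine, and between -0.43 and -0.21 with it.

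Fast fibre genes held the largest positive values. Parvalbumin (Pvalb, probe set 1417653_at, chromosome 15), the calcium buffer of fast fibres, had log2 expression of 8.49, 8.34 and 9.01 in LPtau muscle and 9.34, 8.57 and 8.58 in NPtau muscle. It read 4.91, 6.01 and 4.93 in LP muscle and 9.64, 9.48 and 9.17 in NP muscle. The 3 LP arrays lay more than 2 log2 units below every other array, and LPtau and NPtau overlapped. Pvalb fell by 4.14 in LP relative to NP (SE 0.32, limma adjusted p = 0.000987), while LPtau minus NPtau was -0.21 (SE 0.32). Its interaction was 3.93 (SE 0.45, limma adjusted p = 0.0544). The value ranged from 3.62 to 4.30 over 23 alternative settings, 7 of which brought the adjusted p under 0.05. With sex in the fit no gene had an interaction limma adjusted p under 0.245, and with the replicate block none under 0.393.

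Mybpc2 (1455736_at, chromosome 7), a fast-fibre myosin-binding protein of the thick filament, had 9.26, 9.55 and 10.97 in LPtau, 10.56, 9.87 and 10.66 in NPtau, 6.23, 6.78 and 5.79 in LP, and 10.82, 10.75 and 10.72 in NP. LP again lay apart from all other arrays, while the LPtau arrays were spread more widely than those of NP. Its interaction was 4.06 (SE 0.57, limma adjusted p = 0.119). Actn3 (1418677_at, chromosome 19), the alpha-actinin of fast fibres, had 10.96, 11.37 and 12.06 in LPtau, 12.07, 11.29 and 11.87 in NPtau, 8.52, 10.01 and 9.07 in LP, and 12.22, 12.15 and 12.17 in NP. No LP array reached the lowest LPtau array. The interaction of Actn3 was 2.69 (SE 0.52, limma adjusted p = 0.434). Eef1a2 (1418062_at, chromosome 2), the elongation factor form of adult muscle and nerve, had 10.39, 10.68 and 11.38 in LPtau and 11.25, 10.16 and 10.79 in NPtau. In LP it read 8.58, 9.24 and 8.67 and in NP 11.05, 10.82 and 11.36. All LP arrays lay below all others, and the interaction was 2.33 (SE 0.45, limma adjusted p = 0.434).

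**Figure D2:**
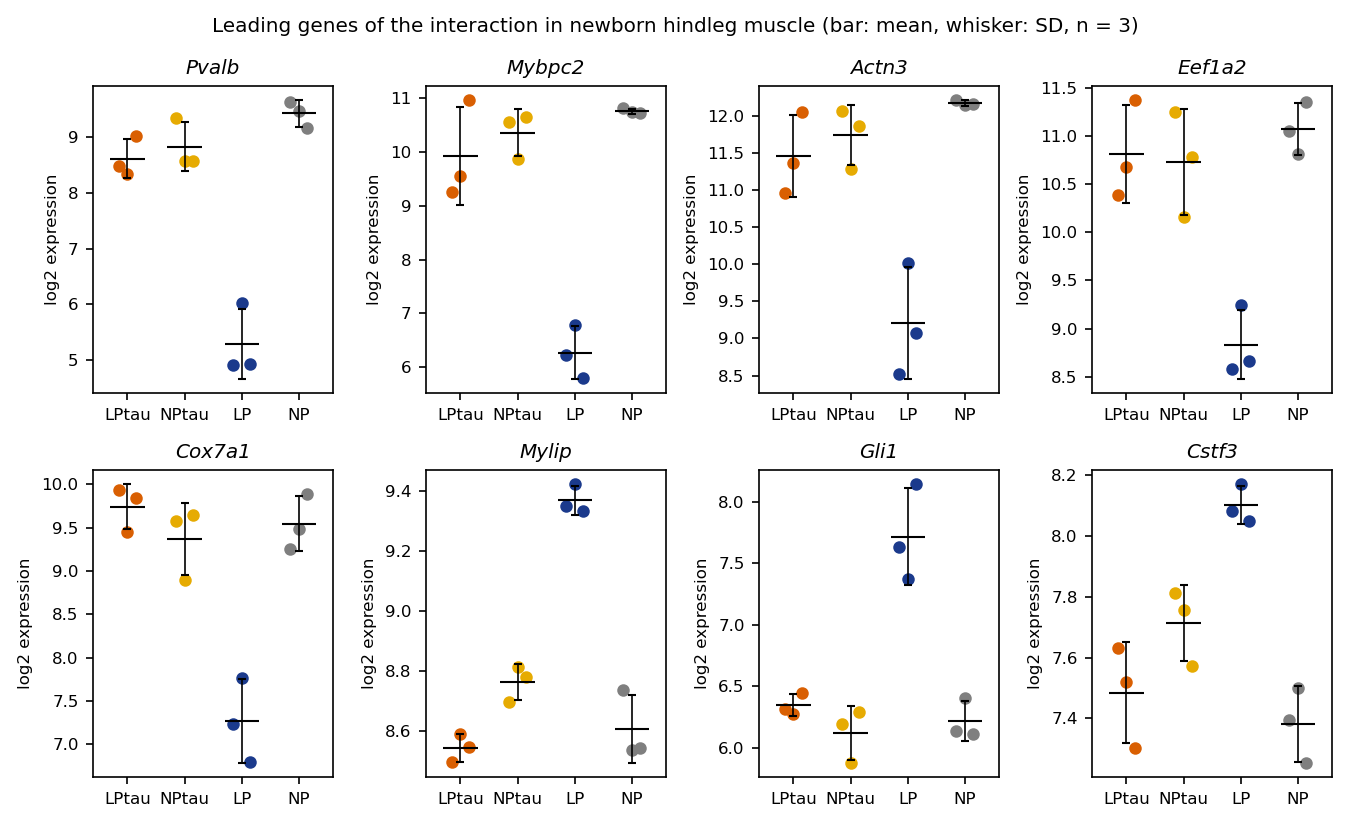
Log2 expression on each array for 8 genes, with LPtau, NPtau, LP and NP from left to right. Points are arrays, the bar is the mean and the whisker the SD of 3 arrays, and each panel has its own y axis. The LP points lie apart from the other 9 in each panel, below them in the first 5 and above them in Mylip, Gli1 and Cstf3.

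The fast fibre list, 26 measured genes of contraction and calcium release, had a positive interaction in all 26, against 53.5% of all genes. In 15, all positive, the unadjusted p was under 0.05, against 3.84% of all genes in that direction, and 0 passed the adjusted test. The median of the 26 differences was 0.02 for LPtau minus NPtau and -0.81 for LP minus NP. The median interaction was 0.80, against 0.03 over all genes. LP values lay wholly below NP values in 23 of the 26 (11.6% of all genes), and LPtau and NPtau overlapped in all 26 (groups apart in 10.4% of all genes). All 26 had a negative LP minus NP, and 3 of them passed the adjusted test of that difference, against 0.104% of all genes called lower. The mean of the list, relative to the NP mean, was -0.57, -0.13 and 0.03 on the LPtau arrays, 0.08, -0.53 and -0.28 on the NPtau arrays, and -1.64, -0.76 and -1.17 on the LP arrays. With sex in the fit the median interaction was 0.81, with 9 genes at an unadjusted p under 0.05. Without LP array 1 and NPtau array 2, which were chosen after their values were seen, the median was 0.47 and 7 genes had such a p. In bulk tissue, fewer fast fibres and less fast fibre RNA per fibre cannot be told apart.

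Among the myosin heavy chains the adult forms held the larger values. The adult fast forms Myh1, Myh2 and Myh4 had interactions of 1.99 (SE 0.51), 1.58 (SE 0.64) and 1.59 (SE 0.58), with unadjusted p of 0.0025, 0.032 and 0.019 in limma. Myh1 read 10.82, 9.76 and 10.44 in LPtau, 10.73, 9.21 and 9.95 in NPtau, 8.71, 8.84 and 8.47 in LP, and 10.00, 10.64 and 10.23 in NP, so that LP lay below all 9 other arrays. The slow form Myh7 had an interaction of 1.25 (SE 0.44). The embryonic Myh3 and the neonatal Myh8, the forms of immature muscle, had interactions of 0.17 (SE 0.28) and 0.35 (SE 0.35), with overlapping groups. The difference between the adult and the immature myosins was not itself tested. Slow fibre genes were positive in 15 of 19, with a median of 0.50, which was 0.21 without LP array 1 and 0.14 without LP array 1 and NPtau array 2. Smtnl1, a smoothelin-like regulator of contraction, led that list with 1.86 (SE 0.41).

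Abra, Kcna5 and Fxyd1, of muscle activity and excitability, also lay low in LP. The whole list of activity and stretch response genes was positive in only 13 of 29, with a median interaction of -0.03. At an unadjusted p under 0.05, 4 of the 29 were positive, against 3.84% of all genes in that direction, and 0 negative. Abra, an actin-binding activator of serum response factor, had 7.85, 6.90 and 8.86 in LPtau, 8.83, 7.50 and 8.86 in NPtau, 5.55, 5.12 and 4.40 in LP, and 8.97, 8.09 and 8.93 in NP. Its interaction was 3.12 (SE 0.73). The potassium channel Kcna5 had an interaction of 1.38 (SE 0.37), and the phospholemman gene Fxyd1, a regulator of the sodium pump, 1.18 (SE 0.23). All 3 genes fell in LP relative to NP, calls that were lost with sex in the fit or without any 1 NP array, and none passed the interaction test. Of 13 muscle ion channel genes 12 were positive, with a median of 0.46.

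Mitochondrial genes leaned the same way, with smaller values and in larger numbers. Cox7a1 (1418709_at, chromosome 7), the heart and muscle form of a complex IV subunit, had 9.93, 9.44 and 9.85 in LPtau, 9.57, 8.89 and 9.64 in NPtau, 7.23, 7.77 and 6.80 in LP, and 9.26, 9.48 and 9.88 in NP. All LP arrays lay below the lowest array of the other groups. Cox7a1 fell by 2.27 in LP relative to NP (SE 0.28, limma adjusted p = 0.0211), a call lost without any 1 NP array, and its interaction was 2.65 (SE 0.39, limma adjusted p = 0.147).

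Complex I, which passes electrons from NADH to ubiquinone, was positive in all 34 measured subunit genes, against 53.5% of all genes. In 22, all positive, the unadjusted p was under 0.05, against 3.84% of all genes in that direction. The median was 0.22 for LPtau minus NPtau and -0.51 for LP minus NP, and the median interaction was 0.69. Ndufb10 led with 11.58, 11.63 and 11.61 in LPtau, 11.58, 11.03 and 11.49 in NPtau, 10.45, 10.95 and 10.55 in LP, and 11.38, 11.48 and 11.78 in NP. LP lay below all other arrays, and the interaction was 1.13 (SE 0.25, limma adjusted p = 0.517). LPtau values lay wholly above LP values in 23 of the 34 genes (9.03% of all genes). The list mean relative to NP was -0.47 on NPtau array 2 and -0.76 on LP array 1. Without these arrays, chosen after their values were seen, 33 of 34 genes were positive, with a median of 0.37 and 12 at an unadjusted p under 0.05. With sex in the fit the median was 0.56, with 14 such genes.

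The other respiratory complexes had the same sign. Complexes II and III were positive in 16 of 16 genes (median 0.56), ATP synthase in 16 of 16 (median 0.64) and complex IV in 18 of 21 (median 0.49). Cytochrome c, Cycs, which carries electrons to complex IV, read 12.97, 12.97 and 13.02 in LPtau, 12.81, 11.82 and 12.74 in NPtau, 11.60, 12.20 and 11.86 in LP, and 12.51, 12.70 and 12.90 in NP. Its LP and NPtau arrays overlapped, its interaction was 1.35 (SE 0.35), and 3 of its 4 probe sets were positive. The sign was positive in 1 of 2 probe sets of Cox17, a copper chaperone of complex IV, and in 1 of 2 of the ATP synthase gene Atp5g1. Genes of the mitochondrial ribosome were positive in 71 of 74 (median 0.43). In 23, all positive, the unadjusted p was under 0.05, against 3.84% of all genes in that direction. Without LP array 1 and NPtau array 2 that median was 0.19, with 60 of 74 positive. Genes of the TCA cycle were positive in 22 of 24 (median 0.46), a value that was 0.28 without NPtau array 2, 0.72 without LPtau array 1, and 0.15 without LP array 1 and NPtau array 2. The ATP synthase median was 0.42 without NPtau array 2. Without LP array 1 and NPtau array 2 the medians were 0.36 for complexes II and III, 0.34 for ATP synthase and 0.29 for complex IV, with 14 of 16, 15 of 16 and 16 of 21 genes positive.

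Fuel genes were mixed in strength. Slc2a4, the insulin-responsive glucose transporter GLUT4, had 9.62, 9.54 and 9.61 in LPtau, 9.44, 8.90 and 9.08 in NPtau, 8.49, 8.92 and 8.62 in LP, and 9.41, 9.52 and 9.20 in NP. The LPtau arrays were above all others, and the interaction was 1.15 (SE 0.23, limma adjusted p = 0.434). Glycolysis and glycogen genes were positive in 22 of 26 (median 0.49), led by the phosphorylase kinase subunit Phkb with 1.03 (SE 0.31) and glycogen synthase Gys1 with 0.95 (SE 0.29). Fatty acid oxidation was positive in 23 of 28 (median 0.35), but only 2 were so at an unadjusted p under 0.05, against 3.84% of all genes. Its median was lower under low protein in both settings, at -0.21 for LPtau minus NPtau and -0.62 for LP minus NP. The median interaction of that list was 0.58 without NPtau array 3 and 0.20 without NPtau array 2, and without LP array 1 as well it was 0.06. The glycolysis median was 0.27 without both arrays. Pdk4, which restrains glucose oxidation, had 8.76, 8.20 and 10.23 in LPtau, 10.97, 8.66 and 10.77 in NPtau, 7.83, 7.90 and 7.16 in LP, and 10.18, 11.09 and 10.67 in NP. Its interaction was 1.95 (SE 0.88). Ppargc1a, the coactivator of mitochondrial genes, had an interaction of 1.90 (SE 1.10, unadjusted p = 0.11 in limma) and read 7.03, 6.80 and 9.97 in NPtau alone.

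**Figure D3:**
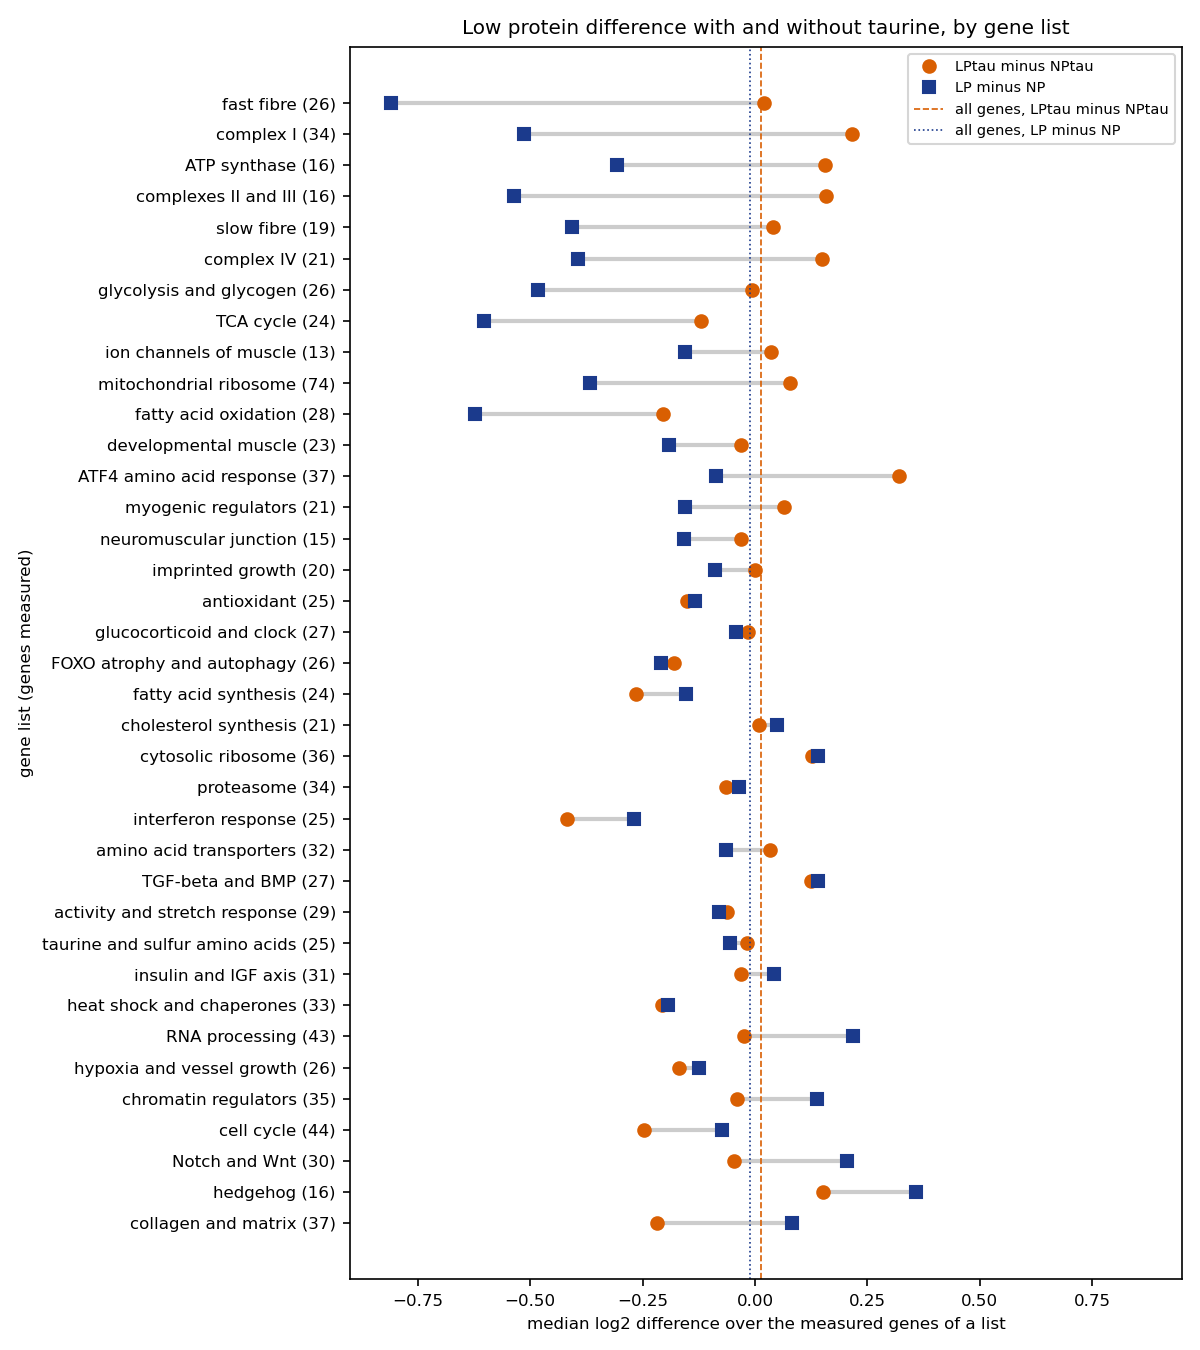
Median log2 difference over the measured genes of each of 37 lists (x axis), with circles for LPtau minus NPtau and squares for LP minus NP, sorted by the median interaction, and dashed and dotted lines at the medians of all genes. The squares of fast fibre and complex I lie at -0.81 and -0.51 and their circles at 0.02 and 0.22, while hedgehog has its square at 0.36 and its circle at 0.15.

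Of the 495 negative genes at an unadjusted p under 0.05, LP was the group mean farthest from the others in 364 (73.5%) and LPtau in 105 (21.2%). The interaction was negative in 8467 of all 18193 genes. Among the 11432 genes above the median level 6309 were negative, with a median interaction of -0.05 and 452 negative at an unadjusted p under 0.05. Mylip (1424988_at, chromosome 13), the ubiquitin ligase that marks the LDL receptor for breakdown, had 8.50, 8.59 and 8.55 in LPtau, 8.70, 8.81 and 8.78 in NPtau, 9.35, 9.42 and 9.34 in LP, and 8.74, 8.54 and 8.54 in NP. Its arrays were close within each group, and LP lay above all others. Mylip rose by 0.76 in LP relative to NP (SE 0.10, limma adjusted p = 0.0213, and 0.0549 with sex in the fit), LPtau minus NPtau was -0.22 (SE 0.10), and the interaction was -0.98 (SE 0.14, limma adjusted p = 0.119). Over the 23 alternatives it stayed between -1.05 and -0.94.

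Gli1 (1449058_at, chromosome 10), the transcription factor whose level follows hedgehog signalling, had 6.31, 6.27 and 6.44 in LPtau, 6.19, 5.87 and 6.29 in NPtau, 7.63, 7.37 and 8.14 in LP, and 6.14, 6.41 and 6.11 in NP. LP lay above the other 9 arrays, Gli1 rose by 1.50 in LP relative to NP (SE 0.19, limma adjusted p = 0.0213, and 0.0549 with sex in the fit), and its interaction was -1.27 (SE 0.27, limma adjusted p = 0.517). The hedgehog receptor Ptch1, itself a target of the pathway, had 8.79, 8.35 and 8.95 in LPtau, 8.49, 8.31 and 8.53 in NPtau, 10.74, 9.17 and 10.18 in LP, and 8.46, 8.71 and 8.75 in NP. Its interaction was -1.14 (SE 0.45), with the sign shared by 2 of 3 probe sets. Sufu, an inhibitor of the Gli factors, had -0.68 (SE 0.17), and also 2 of 3 probe sets with that sign. These were the 3 of 16 hedgehog genes with an unadjusted p under 0.05, against 2.72% of all genes in that direction. Of the 16, 12 were negative, against 6309 of 11432 genes above the median level. The list median was -0.27, and it was -0.15 without NPtau array 1 and -0.06 without LP array 1, which was the highest of the list mean at 0.80 relative to NP, and -0.13 with sex in the fit. On the other LP arrays the list mean was 0.25 and 0.41, above all LPtau, NPtau and NP arrays. Hedgehog is also active in skin and cartilage, and LP array 1 was the highest in keratinocyte genes, with a list mean of 4.19 relative to NP. The cartilage mean was 2.55 and 2.61 on LP arrays 1 and 2 and -0.73 on LP array 3. It was 1.61 to 1.87 on the LPtau arrays, where the hedgehog mean was -0.03 to 0.14. The part of these cells in the hedgehog values was not tested. The keratinocyte mean was -0.52 and -0.27 on LP arrays 2 and 3, within the NP range of -2.05 to 1.13.

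RNA processing genes were negative in 34 of 43, with a median of -0.18, against 6309 of 11432 and -0.05 among genes above the median level. At an unadjusted p under 0.05, 3 were negative, against 2.72% of all genes. Cstf3, a subunit of the cleavage stimulation factor of messenger RNA 3′ ends, had 7.63, 7.52 and 7.30 in LPtau, 7.81, 7.76 and 7.57 in NPtau, 8.08, 8.17 and 8.05 in LP, and 7.40, 7.50 and 7.25 in NP. LP lay above all other arrays, and the interaction was -0.95 (SE 0.17, limma adjusted p = 0.434). It was -0.40 with the probe set of the highest variance. Cpsf6, of the cleavage factor that acts at the same ends, rose in LP relative to NP, a call lost in 12 of the 23 alternatives, and had an interaction of -0.57 (SE 0.16), with all 6 probe sets negative. Clk1, a kinase of splicing factors, had -0.92 (SE 0.29). The list median was -0.08 without LPtau array 1, -0.09 without NPtau array 3, -0.35 without NPtau array 2, -0.30 without LP array 1 and -0.30 without LPtau array 3, so its size rests on single arrays.

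Notch and Wnt genes were negative in 24 of 30, with a median of -0.26, against 6309 of 11432 and -0.05 among genes above the median level. Sfrp2, a secreted Wnt modulator, had 8.29, 8.84 and 8.69 in LPtau, 8.68, 9.03 and 8.71 in NPtau, 9.65, 9.54 and 9.49 in LP, and 9.12, 8.92 and 8.84 in NP. Its interaction was -0.81 (SE 0.22), and LP was above all other arrays. Lgr5, the R-spondin receptor, had -1.25 (SE 0.28), but only 1 of its 2 probe sets was negative. The Notch and Wnt median was -0.13 without LP array 1 and -0.17 without LPtau array 1. The TGF-beta and BMP list was positive in 12 of 27, with a median of -0.03. In it Ltbp1 and Tgfb1, of TGF-beta storage and signalling, had -0.69 (SE 0.20) and -1.03 (SE 0.35), and 1 of 2 Tgfb1 probe sets was negative. Collagen and matrix genes were negative in 31 of 37, with a median of -0.27 that was 0.08 without LP array 1 and LPtau array 1, and so of the other sign.

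**Figure D4:**
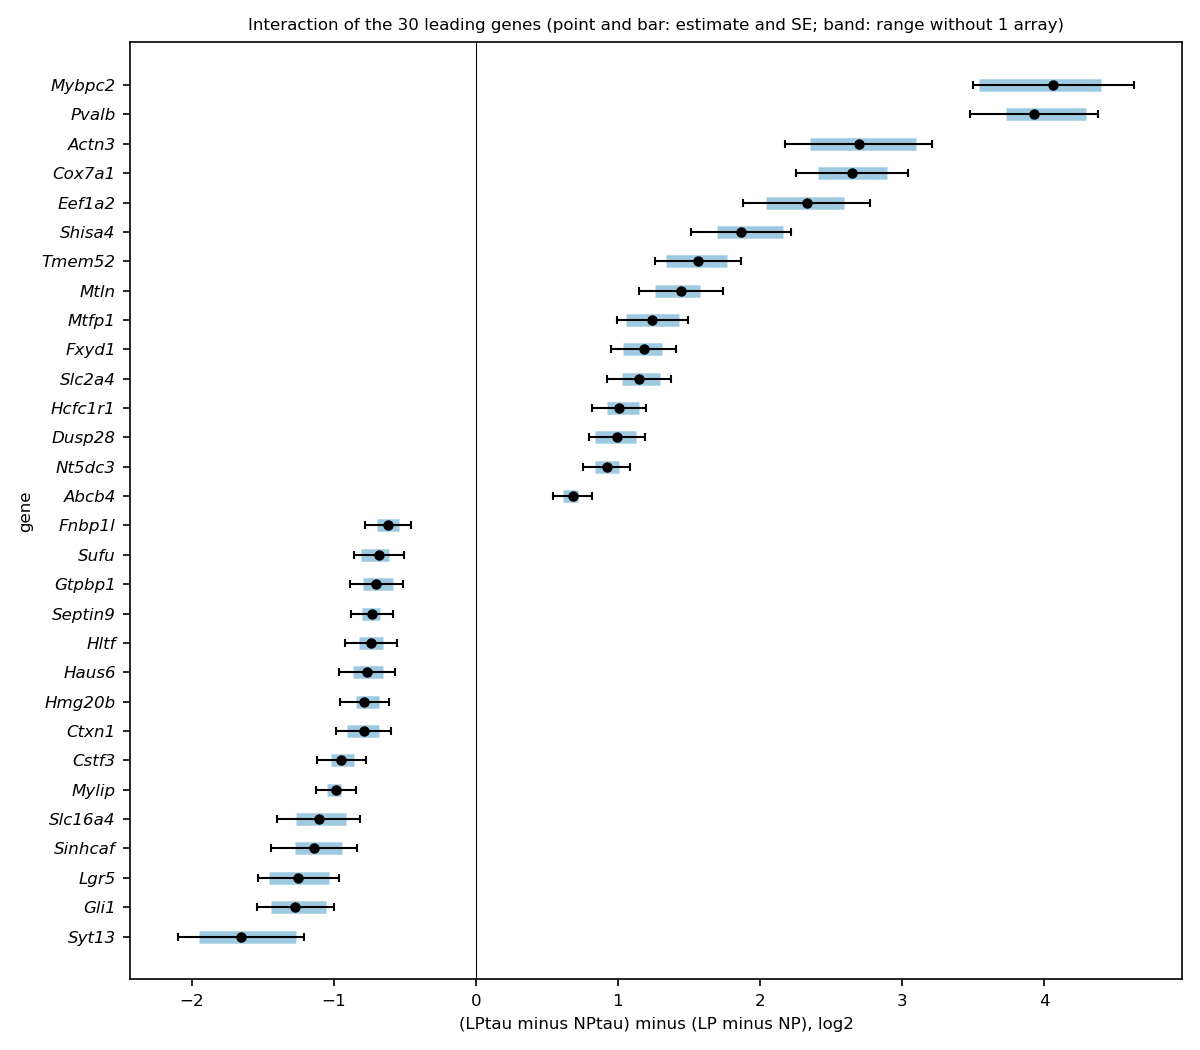
Interaction of the 15 genes with the highest and the 15 with the lowest t (x axis, log2), with the SE as a bar and, as a band, the range over the 12 fits that leave out 1 array. Mybpc2 and Pvalb lie near 4, and the bands of all 30 genes stay on their own side of 0. The genes were chosen by this t on the same arrays, so that outcome was largely fixed in advance.

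In a smaller set of genes the LPtau group stood apart in place of LP. LPtau was the group mean farthest from the others in 279 of the 1194 genes (23.4%), against 34.5% of all genes. Abcb4, a phospholipid transporter, had 6.42, 6.49 and 6.39 in LPtau, 5.99, 6.06 and 5.99 in NPtau, 5.71, 5.92 and 5.92 in LP, and 6.10, 6.08 and 6.15 in NP. LPtau lay above the other 9 arrays and the interaction was 0.68 (SE 0.14, limma adjusted p = 0.464). The ATF4 list, genes that respond to amino acid shortage, was positive in 29 of 37 (median 0.27). In it 9 genes, all positive, had an unadjusted p under 0.05, against 3.84% of all genes in that direction. Its median was 0.32 for LPtau minus NPtau and -0.09 for LP minus NP, so that the values leaned on the taurine side. Asns, the asparagine synthetase and a common ATF4 target, had 10.98, 11.51 and 10.34 in LPtau, 10.62, 9.86 and 9.36 in NPtau, 8.87, 9.90 and 9.50 in LP, and 10.08, 9.48 and 9.49 in NP. Its interaction was 1.26 (SE 0.54). The hormone gene Fgf21 had 0.62 (SE 0.20), but its mean of 4.61 over the 12 arrays lay below the median level of the probe sets. LPtau array 2 held the highest mean of the ATF4 list, 0.58 relative to NP, against 0.07 and 0.17 on LPtau arrays 1 and 3. Without it the list median was 0.10, with 24 of 37 positive, and without NPtau array 3 it was 0.42.

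**Figure D5:**
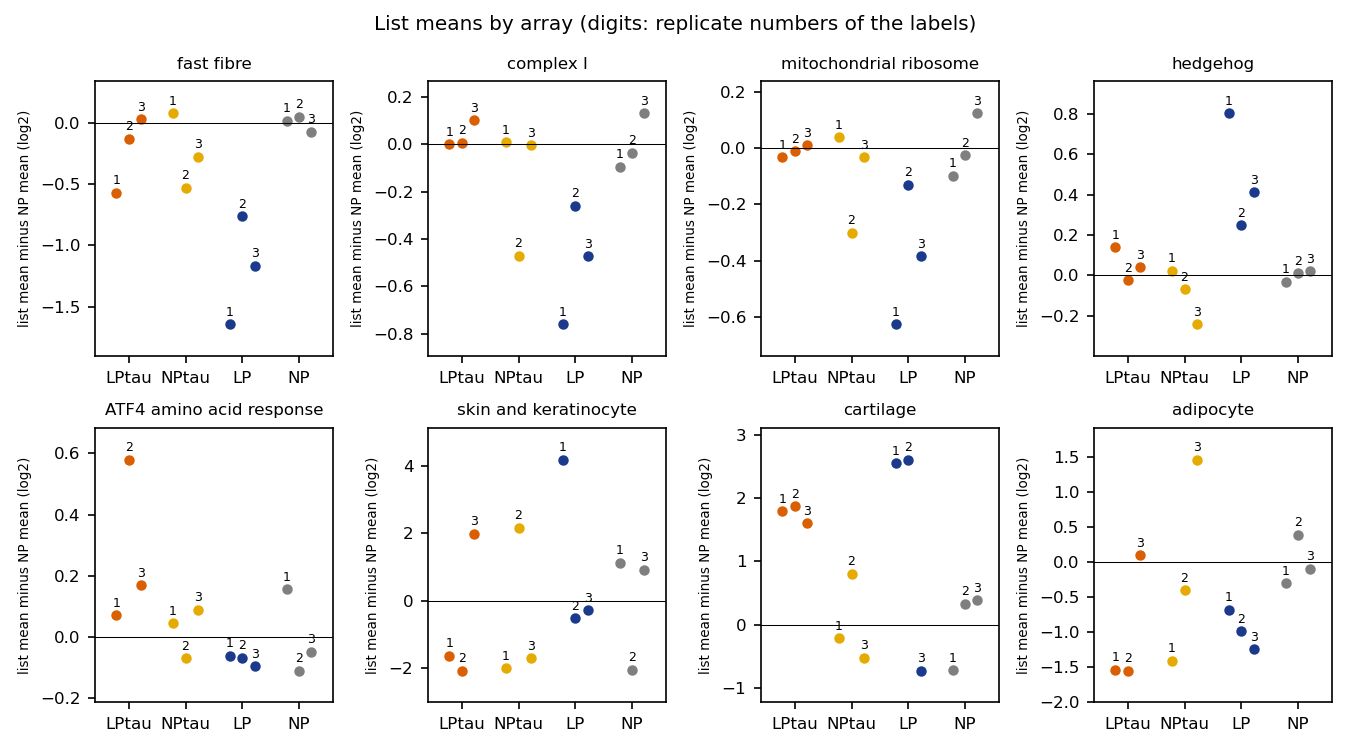
Mean log2 expression of 8 gene lists on each array, relative to the NP mean (y axis), with LPtau, NPtau, LP and NP from left to right and the replicate number above each point. The fast fibre means of LP run from -1.64 to -0.76, below all other arrays, while the keratinocyte list is highest on LP array 1 at 4.19 and cartilage is high on all 3 LPtau arrays and 2 LP arrays.

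Genes of taurine handling had values on both sides of 0. Of 25 genes of taurine and sulfur amino acids, 12 were positive (48%), with a median of -0.04. Slc6a6, the taurine transporter, had 9.61, 9.24 and 9.21 in LPtau, 8.72, 8.61 and 9.25 in NPtau, 10.10, 9.75 and 9.83 in LP, and 9.40, 9.16 and 9.48 in NP. LPtau minus NPtau was 0.49 and LP minus NP 0.55, neither of which passed its test, and the interaction was -0.06 (SE 0.26), with that sign in 2 of 4 probe sets. Csad, whose enzyme makes hypotaurine, had an interaction of -0.73 (SE 0.47), and Cdo1, which acts one step before it, -0.56 (SE 0.83). Igf1 and Igf2, the fetal growth factors, had 0.06 (SE 0.33) and 0.17 (SE 0.19), and the myogenic factors Myod1 and Myog 0.47 (SE 0.37) and 0.21 (SE 0.44). None of these passed the test, which does not show that they are the same in all groups.

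The 23 genes called in LP against NP were read in LPtau against NPtau, which uses other arrays. Their interaction shares the arrays that chose them and is given as a description. The 19 lower genes had a median of -1.19 in LP minus NP. In LPtau minus NPtau 14 of the 19 were negative (47.5% of all genes), with a median of -0.16 and a range of -0.52 to 0.37, and 0 passed. The 4 higher genes, Cpsf6, Gli1, Mbnl3 and Mylip, had a median of 0.76 without taurine and 0.20 with it, where 3 were positive (52.5% of all genes). Mbnl3, a splicing regulator on the X chromosome, had a difference of 0.35 with taurine, which did not pass, and 0.66 without, a call held in 6 of the 23 alternatives. Across all 18193 genes the difference with taurine correlated with that without at r = 0.23. Genes are not independent replicates, and both differences come from arrays processed together.

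The RNA of myofibre markers leaned the same way as the fast fibre and mitochondrial lists, and fibre content itself was not measured. Acta1, 1 of them, had an interaction of 0.39 (SE 0.22) and LP minus NP of -0.14 (SE 0.15). It read near the top of the measured range on all arrays, which may limit its differences. Ckm, another of them, had an interaction of 0.70 (SE 0.24) and LP minus NP of -0.55 (SE 0.17). Neither gene passed either test. The 10 myofibre markers include Tnnt3 and Mylpf, of fast fibres, and the immature myosins Myh3 and Myh8, so they are not free of fibre type. They were positive in 10 of 10, with a median interaction of 0.54. In 2, both positive, the unadjusted p was under 0.05, against 3.84% of all genes in that direction. That median was 0.18 without LP array 1 and NPtau array 2. Their mean relative to NP was -0.39 to 0.08 in LPtau, -0.55 to 0.08 in NPtau, -0.82 to -0.16 in LP, and -0.04 to 0.07 in NP. The fast fibre and complex I medians were larger, at 0.80 and 0.69, but their difference from the myofibre markers was not tested. The mean of the cartilage list relative to NP was 1.61 to 1.87 on the 3 LPtau arrays, against -0.52 to 0.81 on those of NPtau, and 2.55, 2.61 and -0.73 on the LP arrays, against -0.72 to 0.39 on those of NP. It was thus high on the LPtau arrays and on 2 of 3 LP arrays. The adipocyte mean was -1.54, -1.56 and 0.09 in LPtau, -1.41, -0.40 and 1.47 in NPtau, -0.68, -0.99 and -1.25 in LP, and -0.30, 0.39 and -0.09 in NP, so that LPtau and NPtau overlapped. Tendon genes had a median interaction of 0.92, which was -0.35 without LP array 3, where their mean was -1.98. Keratinocyte genes had a median interaction of -1.37, which was 0.13 without LP array 1. The part of tissue composition in the interaction was not tested.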

How the data were processed

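RNA of 12 hindleg muscle samples, 3 per maternal diet, was read on 1-colour Affymetrix mouse arrays of 45101 probe sets. The deposited values are log2 expression per probe set, made by the authors. Per the submitters' processing notes they used RMA and R 2.7.0, and MAS5 is named there without a role. No further normalization was applied, and 0 value columns were left without a sample.

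Of the probe sets 34945 had 1 gene symbol, 932 several and 9160 none, and 64 were controls. Names follow the platform annotation, with 34741 gene identifiers found in a GRCm38.p6 gene table. Each of 18193 genes was represented by its probe set of highest mean in muscle (12 arrays), and 9010 genes had more than 1. Agreement is given as the number of probe sets with the same sign. The 10092 probe sets without a single symbol were tested apart, with 0 calls for the interaction and 543 (5.38%) at an unadjusted p under 0.05.

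Limma 3.58.1 in R 4.3.3 fitted 4 diet means to the 12 arrays without covariates, so that the groups share 1 estimate of the spread, and 5 contrasts were tested. A call is a Benjamini-Hochberg adjusted p under 0.05 over all genes. The number of arrays limits the precision. An exact test of 3 against 3 arrays cannot go below 0.1. On simulated data, 36% of interactions of 1 log2 unit were called, 76% of 2, 96% of 3 and 98% of 4. Each size had 50 genes, planted together among 18193, and 6 of 17993 unchanged genes were called. Those shares hold for the simulated data, and the power on these arrays was not tested. The simulated noise was independent between genes and alike in all groups, and the planted genes were all above the median level. On the arrays, the interactions of Mybpc2 at 4.06 and Pvalb at 3.93 were not called (limma adjusted p = 0.119 and 0.0544).

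Named genes are the 15 highest and 15 lowest interaction t among genes above the median level of the probe sets, up to 3 genes of each of 52 lists by p, and a fixed set of muscle, taurine and growth genes. Predicted and sex-linked genes were left out of the first. Members and lists were chosen with earlier results of these data known. Liver arrays were not used here. Alternatives were other normalizations, probe set rules, variance models, covariates and left-out arrays.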

Additional observations from a re-analysis of the deposited data

How the results depend on the processing

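The interaction had 0 calls in the fit reported. It had 1 call among genes above the median level, after cyclic loess, after quantile normalization, and with trended and robust eBayes, which was Pvalb each time. With array weights it had 4 calls (Pvalb, C1qtnf9, Mybpc2 and Mylip), and without 1 array 0 to 5, the 5 without LP array 2. With the replicate number as a block it had 0 calls, 1109 genes at an unadjusted p under 0.05 and a smallest adjusted p of 0.393. With sex as a covariate it had 0 calls, 674 such genes and a smallest limma adjusted p of 0.245. Same-numbered arrays did not deviate together, with correlations of -0.44 to 0.34 over 18 pairs, 6 of them over 0.1, so the numbers were not taken to pair samples. LPtau against NPtau had 0 calls under each of the 23 alternatives.

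LP against NP had 23 calls. Under the alternatives it had 2 with the replicate block, 5 with sex, 39 among genes above the median level, 65 after cyclic loess, 62 after quantile normalization, 38 with the mean of probe sets, 789 with array weights and 2 to 126 without 1 array. The lowest counts came without NP array 2 or 3, and the highest without LP array 2. All 23 were among the 126, and 2 of the 23 were called without NP array 3. Without LP array 1 and LPtau array 1, chosen after seeing the data, there were 293, and without LP array 1 and NPtau array 2, 48. The cause was not tested.

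Of 690 values of the 30 leading genes under the alternatives 0 changed sign and 11 passed the adjusted test, in 5 genes. These genes were chosen by their extreme t on the same arrays, so a kept sign was largely fixed in advance and is no support. Averaging the probe sets brought Sufu to -0.16 and Lgr5 to -0.53. Of 1196 list values 92 moved beyond the spread between replicates. Signal over background was not analysed here.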

Other observations

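Some gene groups had low protein differences of one sign with taurine and without it, and an interaction near 0. Interferon response genes had a median of -0.42 for LPtau minus NPtau and -0.27 for LP minus NP over 25 genes, with a median interaction of -0.01. In LP minus NP 23 of the 25 were negative, against 9539 of all 18193 genes. Cytosolic ribosomal protein genes, which build the translation machinery, had medians of 0.13 and 0.14 over 36 genes. Genes of antioxidant defence had -0.15 and -0.13 over 25 genes. The cell cycle list had medians of -0.25 for LPtau minus NPtau and -0.07 for LP minus NP over 44 genes, with a median interaction of -0.23 in place of one near 0, and its mean was -0.62 relative to NP on LPtau array 1. No gene of these lists passed the interaction test.

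Growth and protein turnover lists also had median interactions near 0. The proteasome had a median interaction of -0.01 over 34 genes and the insulin and IGF list -0.04 over 31. In the FOXO and autophagy list, with a median of 0.03 over 26 genes, Trim63, the muscle ubiquitin ligase MuRF1, had 10.12, 9.06 and 8.43 in LPtau, 8.85, 8.27 and 8.59 in NPtau, 7.43, 8.10 and 7.40 in LP, and 8.46, 8.46 and 9.33 in NP. Its interaction was 1.74 (SE 0.56, limma adjusted p = 0.707). LP was the lowest group for Trim63, below all 9 other arrays. In the FOXO and autophagy list 5 of 26 genes were positive at an unadjusted p under 0.05, against 3.84% of all genes in that direction. At that p 0 were negative, and LP values lay wholly below NP values in 12 of the 26 (11.6% of all genes).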
